A study of Mus musculus with 6 samples.

Results

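The 10 genes described here set the pace of the G1 phase in bone marrow (BM) regulatory T cells (Tregs): the D cyclins Ccnd1, Ccnd2 and Ccnd3, the E cyclins Ccne1 and Ccne2, the G1 kinases Cdk4 and Cdk6, and the cyclin-dependent kinase (CDK) inhibitors Cdkn1a, Cdkn1b and Cdkn2c. They were chosen by symbol, and each symbol matched 1 of the 36930 features listed for every library. RNA had been sequenced from FACS-purified BM Tregs of 3 mice with chronic myeloid leukemia (CML) and 3 naive mice, 1 library per mouse. Every mouse was of the Foxp3-DTR-GFP strain, at postnatal week 8, in which Foxp3 drives GFP and the human diphtheria toxin receptor, so the control mice carried the reporter as well. CML mice had received syngeneic LSKs, stem and progenitor cells of the BM, that were transduced in 2 rounds with a BCR-ABL1-GFP retrovirus and given i.v. without irradiation, and naive mice had no leukemia. GFP was therefore present both in the Tregs and in the leukemic cells of a CML mouse. The time between induction and harvest is not given in the sources used here.

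D cyclins bind Cdk4 and Cdk6 once a T cell receives growth signals, and the complex phosphorylates the retinoblastoma protein, which then releases E2F transcription factors. E2F in turn drives the E cyclins, which activate Cdk2 and carry the cell into S phase. Cdkn2c (p18) blocks Cdk4 and Cdk6 directly, while Cdkn1b (p27) and Cdkn1a (p21) act mainly on Cdk2 complexes, Cdkn1b as a gene of resting T cells and Cdkn1a as a target of p53. Control of these proteins is in large part post-translational, so their mRNA is only one layer of it.

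Values are read as RPKM, that is read counts scaled by transcript length and library depth, a reading made from the values themselves. CML replicate 2 stood apart from the other libraries. Its estimated depth was 829181 reads, against 2286190 to 9751911 in the others, and its 10 highest features held 50.7% of the summed RPKM, against 28.5% to 31.3%. All 8 Treg markers were detected in every library, with a summed RPKM of 1928 to 2679 in CML and 1890 to 2134 in naive libraries. Markers of erythroid cells, which cycle fast in BM, summed to 41.8 to 253 RPKM in CML and 5.93 to 31.6 RPKM in naive libraries, with no overlap, 5 to 9 of the 9 listed markers in the tables being detected in CML and 5 to 7 in naive libraries. Neutrophil precursor markers (10 listed) had 5 to 10 detected in CML and 6 to 10 in naive libraries. They summed to 11.98, 213 and 233 RPKM in CML replicates 1, 2 and 3, and to 32.6 to 54.4 RPKM in naive libraries. Replicates 2 and 3 of CML were thus above all naive libraries and replicate 1 below them. Stem and progenitor markers (10 listed) spanned 19.7 to 30.005 RPKM and 20.6 to 41.2 RPKM with Hoxa9 at 0 throughout. The 6 CD8 T and NK markers summed to 51.1 to 81.2 and 27.6 to 60.3 RPKM. The 8 stroma and endothelium markers summed to 32.6 to 46.95 RPKM in CML and 68.5 to 99.03 RPKM in naive libraries, a gap carried by Pecam1 (24.7 to 38.4 against 62.7 to 95.6 RPKM), while Cdh5 was higher in CML (5.58 to 8.54 against 1.02 to 4.49 RPKM) and Adipoq, Cxcl12 and Lepr were at 0 in all libraries. The part of these other cells in the results was not tested, and in sorted bulk RNA a change per cell cannot be told apart from a change in the mix of cells.

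Each gene was compared by a limma fit on log2(RPKM + 1) over the 13923 features with a mean of at least 1 RPKM, and all 10 genes were among them, Cdkn1a through its value in CML replicate 1. No gene of the 10 was called at an adjusted p under 0.05 with a fold of at least 1.5, a rule that called 0.172% of features (6 higher and 18 lower in CML). After scaling all libraries to the same 75th percentile the split over all features was 21 higher and 32 lower, and after quantile normalization 23 and 30. The median feature lay at -0.18 on the log2 scale, and the 10 genes had a median of 0.21. At an unadjusted p under 0.05 Ccne2, Cdk4 and Cdk6 were higher in CML, where 2.92% of features were, and Cdkn1b was lower, where 6.77% were. Cdk4 and Cdk6 were higher without overlap between the groups, as were 4.84% of features, and Cdkn1b was lower without overlap, as were 12.2%. With 3 mice per group the libraries can be assigned in 20 ways, so a two-sided exact permutation p cannot go below 0.1.

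**Figure D1:**
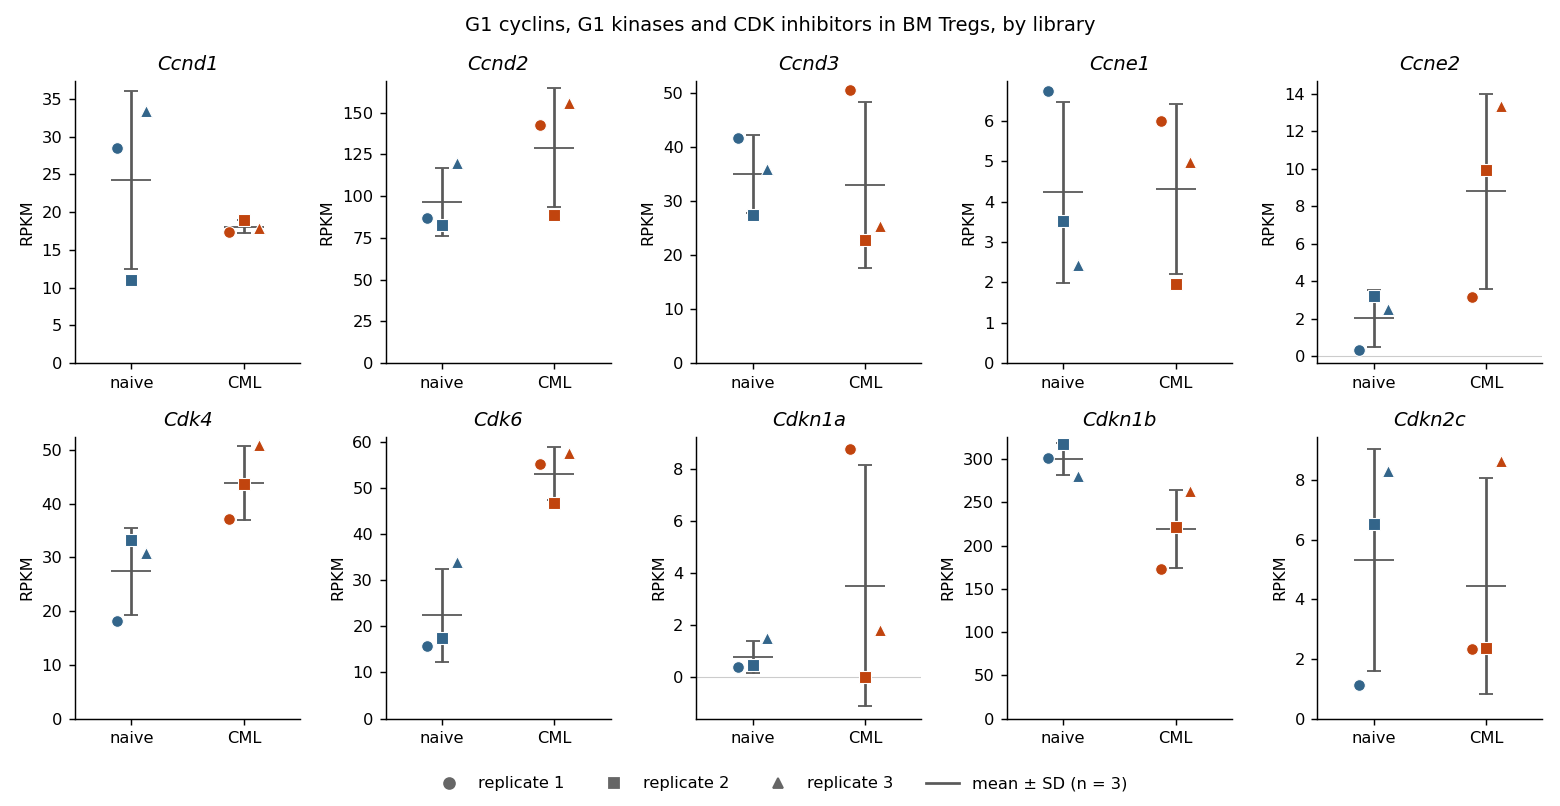
RPKM (y axis, from 0 in every panel) of each of the 10 genes in the 3 naive and 3 CML libraries, with 1 point per mouse and mean ± SD (n = 3). Cdk4 and Cdk6 sit above all naive values in every CML library, Cdkn1b sits below, and the other 7 genes overlap between the groups.

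In naive Tregs the order of levels ran from Cdkn1b through Ccnd2 down to Cdkn1a. Cdkn1b (281 to 318 RPKM) and Ccnd2 (82.4 to 120.1 RPKM) were apart from each other and from all that followed. Ccnd3, Cdk4, Ccnd1 and Cdk6 formed an overlapping group between 10.99 and 41.7 RPKM, and Cdkn2c, Ccne1, Ccne2 and Cdkn1a formed a second one at or below 8.29 RPKM. In CML Tregs Cdkn1b and Ccnd2 stayed at the top, and Cdk6 had the third highest mean where it had the sixth in naive Tregs. Among all features tested, the mean level of Cdkn1b over the 6 libraries was at percentile 98.4 and that of Ccnd2 at 94.9. Cdk6, Cdk4 and Ccnd3 lay at 78.3, 76.8 and 75.7, and Ccnd1 at 63.2. Ccne2, Cdkn2c, Ccne1 and Cdkn1a lay at 29.4, 27.4, 24.8 and 12.1, so the comparisons for these 4 genes rested on low signal. Levels of different genes can be set side by side only per length, and the lengths used for the RPKM are not given in the sources used here.

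Cdk6, the kinase partner of D cyclins that is abundant in lymphocytes, showed the clearest difference of the 10. It stood at 55.2, 46.7 and 57.5 RPKM in CML replicates 1, 2 and 3 and at 15.7, 17.4 and 33.98 RPKM in naive replicates 1, 2 and 3. The lowest CML library was above the highest naive library. The means were 53.1 ± 5.68 RPKM in CML and 22.4 ± 10.1 RPKM in naive Tregs (SD, n = 3), a log2 fold change of 1.29 (SE 0.31, 95% interval 0.58 to 2.0). The limma p was 0.00321 and the adjusted p 0.242, which misses the threshold over all features, and the exact permutation p was 0.1, the smallest it can give. Cdk6 kept an unadjusted p under 0.05 in all 15 alternative fits, with a highest p of 0.0184 and an adjusted p from 0.173 to 0.747, and its log2 fold change lay between 1.09 and 1.62 when 1 library was left out. In CML replicate 2, the shallow library, the value was the lowest of the 3 CML values.

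Cdk4, the other partner of D cyclins, was at 37.2, 43.6 and 50.8 RPKM in CML and at 18.2, 33.3 and 30.8 RPKM in naive Tregs. The groups did not overlap, though the gap between CML replicate 1 and naive replicate 2 was smaller than the SD of either group. The means were 43.9 ± 6.84 and 27.4 ± 8.09 RPKM (SD, n = 3), a log2 fold change of 0.69 (SE 0.28, 95% interval 0.051 to 1.34, limma p = 0.0377, adjusted p = 0.489, exact permutation p = 0.1). The unadjusted p went above 0.05 without CML replicate 2, CML replicate 3, naive replicate 1 or naive replicate 3, and also with library weights or no trend in the variance. The log2 fold change was still 0.69 without CML replicate 2, and over the 15 alternatives it spanned 0.43 (without naive replicate 1) to 0.85, with an adjusted p of 0.349 to 0.863. The summed level of both kinases was 92.3, 90.4 and 108 RPKM in CML and 33.9, 50.7 and 64.8 RPKM in naive Tregs. Of that sum, Cdk6 held 59.8%, 51.7% and 53.1% in CML and 46.4%, 34.4% and 52.4% in naive Tregs, and these shares overlapped.

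The promoters of Cdk6 and Cdk4 are shown because these are the genes that were higher without overlap. Each line gives 250 bases ahead of a RefSeq transcript start, build GRCm38.p6, plus strand, at chr5:3343643-3343892 for Cdk6 and chr10:127063285-127063534 for Cdk4, and capitals mark E boxes and GC boxes.
Cdk6: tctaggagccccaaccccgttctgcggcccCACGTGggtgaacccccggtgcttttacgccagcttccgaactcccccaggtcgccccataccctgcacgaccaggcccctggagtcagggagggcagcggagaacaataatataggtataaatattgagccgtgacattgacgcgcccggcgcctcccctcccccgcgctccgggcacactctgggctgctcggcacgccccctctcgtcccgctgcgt
Cdk4: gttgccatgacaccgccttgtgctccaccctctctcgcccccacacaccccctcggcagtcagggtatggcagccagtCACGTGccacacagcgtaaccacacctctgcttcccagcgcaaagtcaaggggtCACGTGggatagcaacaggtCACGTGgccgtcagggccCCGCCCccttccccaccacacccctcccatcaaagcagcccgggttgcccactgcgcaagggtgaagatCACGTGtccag
The E box CACGTG, a palindrome bound by Myc and related factors, occurred 4 times in the Cdk4 window, with its first base 172, 118, 98 and 11 bases before the start, and 1 time in the Cdk6 window, 220 bases before the start. Of 32536 such windows from RefSeq, 6.04% held an E box, and 7 windows (0.0215%) held at least 4. The Cdk4 window also had 1 GC box (GGGCGG or its reverse CCGCCC, in 33.0% of windows), at 80 bases. A match is a description of letters, not a site shown to be bound.

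Cdkn1b, the inhibitor that holds resting T cells out of cycle, was the most abundant of the 10 genes in both groups and lower in CML. It was at 173, 221 and 263 RPKM in CML and at 302, 318 and 281 RPKM in naive Tregs. The highest CML library stayed below the lowest naive library. The means were 219 ± 45.1 and 300.1 ± 18.8 RPKM (SD, n = 3), a log2 fold change of -0.47 (SE 0.18, 95% interval -0.89 to -0.054, limma p = 0.0316, adjusted p = 0.4705, exact permutation p = 0.1). The unadjusted p went above 0.05 without CML replicate 1 or without any 1 naive replicate, and also with no trend in the variance. Over the 15 alternatives the log2 fold change spanned -0.61 to -0.31 and the adjusted p 0.264 to 0.867. Skp2, which with Cks1b marks the Cdkn1b protein for destruction, was at 6.14, 6.64 and 4.16 RPKM in CML and 4.89, 2.08 and 1.78 RPKM in naive Tregs (a log2 difference of 0.83, SE 0.48, limma adjusted p = 0.611). Foxo1, a transcription factor known to induce Cdkn1b, was at 69.2, 42.5 and 77.7 RPKM in CML and 86.9, 110.5 and 79.5 RPKM in naive Tregs, lower without overlap, with a log2 fold change of -0.57 (SE 0.26, limma adjusted p = 0.532).

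The Cdkn1b window is given for the same reason, as the gene that was lower without overlap (chr6:134920151-134920400, plus strand), with CCAAT boxes and a GC box in capitals.
Cdkn1b: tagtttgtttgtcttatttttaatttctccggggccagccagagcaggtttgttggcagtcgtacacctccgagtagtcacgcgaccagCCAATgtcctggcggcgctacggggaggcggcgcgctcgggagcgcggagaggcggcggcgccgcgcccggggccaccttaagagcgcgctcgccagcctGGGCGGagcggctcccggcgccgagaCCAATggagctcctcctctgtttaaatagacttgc
CCAAT or its reverse ATTGG, found in 33.8% of windows, occurred 161 and 35 bases before the start, and the GC box 61 bases before it. The FOXO letters GTAAACA, on either strand in 3.17% of windows, were not in this window. Promoter windows were in the table for 7 of the 10 genes, and none was given for Ccnd1, Ccnd2 or Ccne2. E2F letters (TTTCCCGC, TTTGGCGC, TTTCGCGC or TTTGCCGC, either strand, in 1.87% of all windows) occurred in 0 windows of those 7 genes.

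Set against Cdkn1b in the same library, a ratio that a linear scaling of libraries cannot move, both kinases were apart between the groups. The ratio of Cdk6 to Cdkn1b was 0.319, 0.211 and 0.219 in CML and 0.0521, 0.0548 and 0.121 in naive Tregs. The ratio of Cdk4 to Cdkn1b was 0.215, 0.197 and 0.193 in CML and 0.0602, 0.105 and 0.110 in naive Tregs. Each CML library was above each naive library for both ratios. This had to be so, because each kinase was higher and Cdkn1b lower without overlap, so these ratios restate those values. The summed D cyclins to Cdkn1b gave 1.22, 0.5899 and 0.757 in CML and 0.5204, 0.37998 and 0.676 in naive Tregs, with CML replicate 2 inside the naive range. These ratios were chosen after the values were seen and carry no test.

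**Figure D2:**
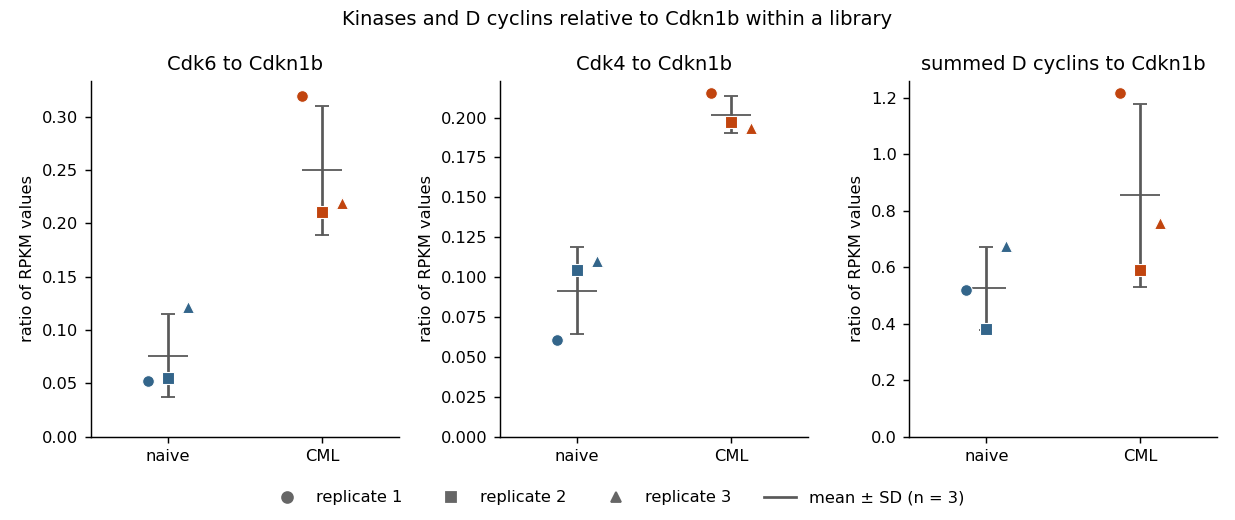
Ratio of RPKM values within each library (y axis, from 0) for Cdk6, Cdk4 and the summed D cyclins, each over Cdkn1b, with 1 point per mouse and mean ± SD (n = 3). The CML points lie between 0.211 and 0.319 for Cdk6 and between 0.193 and 0.215 for Cdk4, above every naive point, while the D cyclin ratios overlap.

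Ccnd2, the D cyclin induced by cytokine and antigen receptor signals in lymphocytes, was the main D cyclin of these cells. It was at 142, 88.7 and 156 RPKM in CML and at 86.8, 82.4 and 120.1 RPKM in naive Tregs. CML replicates 1 and 3 were above all naive libraries and CML replicate 2 was within their range. The log2 fold change was 0.39 (SE 0.26, 95% interval -0.20 to 0.99, limma p = 0.161, adjusted p = 0.644, exact permutation p = 0.2), and without CML replicate 2 it was 0.64 with an unadjusted p of 0.0160. Ccnd3, which is needed for expansion of early thymocytes, was at 50.6, 22.9 and 25.3 RPKM in CML and 41.7, 27.4 and 36.003 RPKM in naive Tregs, a log2 fold change of -0.16 (95% interval -0.93 to 0.62, limma adjusted p = 0.892). CML replicate 1 was the highest and CML replicate 2 the lowest of all 6 libraries, and the sign turned, to 0.053, without CML replicate 2.

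Ccnd1, a D cyclin better known from epithelial and other non-lymphoid cells, was at 17.3, 18.96 and 17.9 RPKM in CML and at 28.5, 10.99 and 33.4 RPKM in naive Tregs. The CML libraries were close together, at 18.1 ± 0.822 RPKM, whereas the naive libraries spread on both sides of them, at 24.3 ± 11.8 RPKM (SD, n = 3). The log2 fold change was -0.27 (SE 0.41, 95% interval -1.21 to 0.67, limma adjusted p = 0.837). Without naive replicate 2 the value was -0.74 with an unadjusted p of 0.0277, and without naive replicate 3 the sign turned, to 0.019.

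Within the D cyclins, Ccnd2 held 67.7%, 67.96% and 78.3% of the summed RPKM in CML and 55.3%, 68.2% and 63.4% in naive Tregs. Ccnd3 held 12.7% to 24.1% in CML and 18.99% to 26.6% in naive Tregs, and Ccnd1 held 8.25% to 14.5% and 9.098% to 18.1%. Ccnd2 was thus the largest share in each of the 6 libraries. The summed D cyclins were at 210.3, 131 and 199 RPKM in CML and 157, 121 and 189.5 RPKM in naive Tregs, and the groups overlapped for the sum as for each share.

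Of the E cyclins, which activate Cdk2 at the end of G1, Ccne2 was higher in CML at an unadjusted p under 0.05 and Ccne1 did not pass; the difference between them was not tested. Ccne2 was at 3.14, 9.94 and 13.3 RPKM in CML and at 0.317, 3.19 and 2.53 RPKM in naive Tregs. CML replicate 1 lay just under naive replicate 2 (3.138 against 3.194 RPKM), and the other CML libraries were above all naive ones. The means were 8.80 ± 5.19 and 2.02 ± 1.51 RPKM (SD, n = 3), a log2 fold change of 1.68 (SE 0.67, 95% interval 0.14 to 3.23, limma p = 0.0364, adjusted p = 0.487, exact permutation p = 0.2). The unadjusted p went above 0.05 without CML replicate 2, CML replicate 3, naive replicate 1 or naive replicate 3, and also with a pseudocount of 0.1, no filter on low values, a mean of at least 5 RPKM or library weights. Over the 15 alternatives the log2 fold change spanned 1.03 to 2.30 and the adjusted p 0.245 to 0.867. After scaling to the same 75th percentile the groups did not overlap, 3.13 to 12.1 against 0.303 to 3.08, where 6.49% of features were higher without overlap.

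Ccne1 was at 5.995, 1.97 and 4.99 RPKM in CML and at 6.75, 3.53 and 2.42 RPKM in naive Tregs. High and low libraries occurred in both groups, and the log2 fold change was 0.016 (95% interval -1.23 to 1.26, limma adjusted p = 0.993), an interval that leaves room for a difference of more than the fold threshold in either direction. The share of Ccne1 in the summed E cyclins was 65.6%, 16.5% and 27.2% in CML and 95.5%, 52.5% and 48.9% in naive Tregs, which overlapped through CML replicate 1. Their sum was 9.13, 11.9 and 18.3 RPKM in CML and 7.07, 6.725 and 4.96 RPKM in naive Tregs, higher in every CML library. Cdk2, their kinase partner, was at 23.5, 11.9 and 21.8 RPKM in CML and 22.2, 26.99 and 27.03 RPKM in naive Tregs (a log2 difference of -0.45, SE 0.31, limma adjusted p = 0.665).

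**Figure D3:**
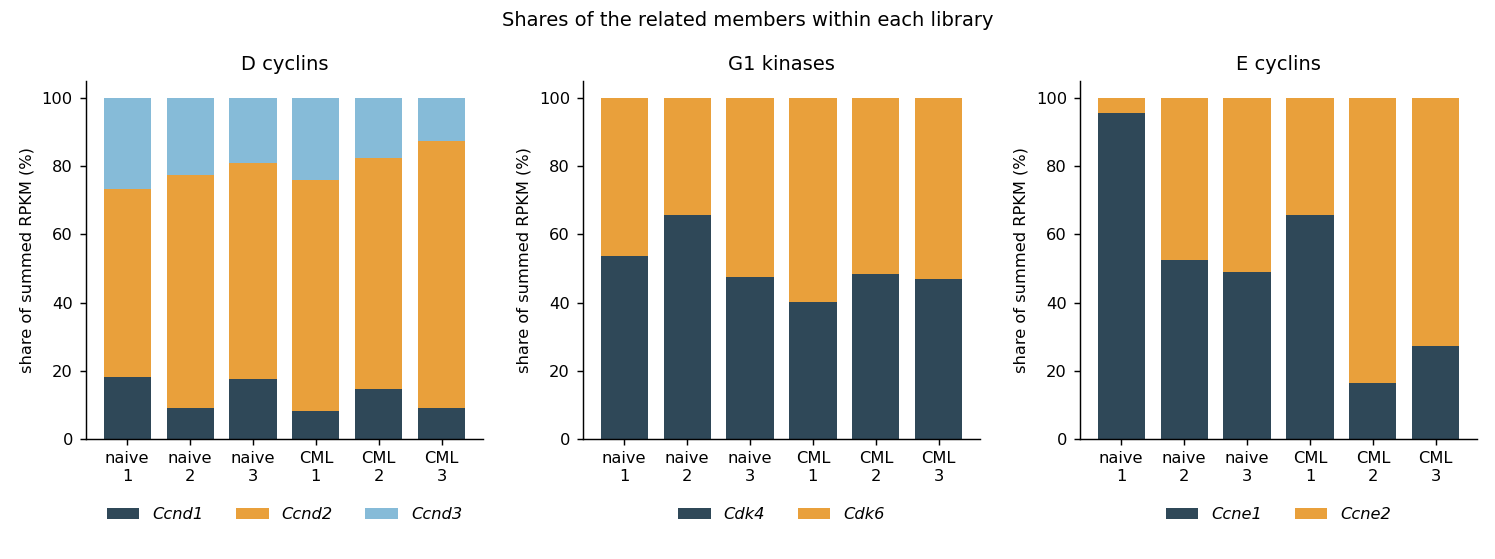
Share of each gene in the summed RPKM (y axis, percent) of the 3 D cyclins, the 2 G1 kinases and the 2 E cyclins, with 1 bar per library. Ccnd2 is the largest D cyclin share in each bar, from 55.3% to 78.3%, and the E cyclin shares vary most, with Ccne1 between 16.5% and 95.5%.

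Cdkn1a, the p53 target and stress-induced inhibitor, was at 8.76, 0 and 1.82 RPKM in CML and at 0.402, 0.475 and 1.496 RPKM in naive Tregs. One CML library was far above the rest and another had no reads. In CML replicate 2 a value of 0 allows at least 1.74 RPKM (3 reads over the longest coding transcript, counting error only). A shorter length would allow more. Even 1.74 RPKM is above all 3 naive values, so a difference was not detectable in that library. The means were 3.53 ± 4.62 and 0.791 ± 0.612 RPKM (SD, n = 3), with a log2 fold change of 0.81 (SE 0.84, 95% interval -1.15 to 2.76, limma adjusted p = 0.75999) and of -0.041 without CML replicate 1. Trp53, which encodes p53, was at 30.5, 16.6 and 40.95 RPKM in CML and 47.2, 42.1 and 34.3 RPKM in naive Tregs (a log2 difference of -0.55, SE 0.33, limma adjusted p = 0.625). Mdm2, a p53 target that limits p53, was at 52.9, 27.1 and 55.9 RPKM in CML and 62.7, 46.3 and 49.04 RPKM in naive Tregs (a log2 difference of -0.27, SE 0.30, limma adjusted p = 0.772). CML replicate 2 was the lowest library for all 3 genes.

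The window ahead of the first of the Cdkn1a starts in the RefSeq table (chr17:29090729-29090978, plus strand) is shown because it held the core letters of a p53 element, in capitals.
Cdkn1a: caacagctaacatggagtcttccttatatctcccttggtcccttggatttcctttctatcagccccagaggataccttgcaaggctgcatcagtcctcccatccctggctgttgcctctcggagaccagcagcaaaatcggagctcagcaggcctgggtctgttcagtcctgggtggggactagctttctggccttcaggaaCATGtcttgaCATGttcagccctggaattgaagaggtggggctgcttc
The search was for CATG, which reads the same on both strands, followed by another CATG 6 bases on. Such a pair began 48 bases before the start and was found in 0.464% of all windows.

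Cdkn2c, which binds Cdk4 and Cdk6 themselves, was at 2.33, 2.38 and 8.63 RPKM in CML and at 1.14, 6.52 and 8.29 RPKM in naive Tregs. Each group held low and high libraries, and the log2 fold change was -0.15 (SE 0.71, 95% interval -1.80 to 1.49, limma adjusted p = 0.952). Cdkn1b made up 93.97% to 98.9% of the summed RPKM of the 3 inhibitors in CML and 96.6% to 99.5% in naive Tregs. The sum of the 3 was 184, 224 and 273 RPKM in CML and 303, 325 and 290.3 RPKM in naive Tregs, lower in every CML library.

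**Figure D4:**
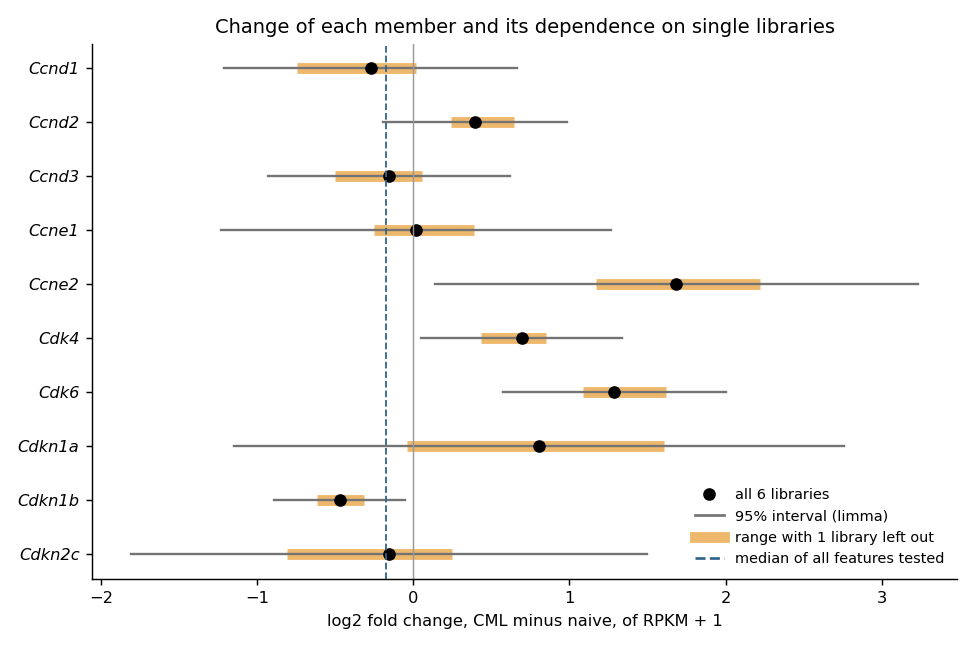
Log2 fold change, CML minus naive, of RPKM + 1 (x axis) for each of the 10 genes, with the 95% limma interval (n = 3 per group), the range when 1 library is left out, and the median of all features (-0.18, dashed). The intervals of Ccne2, Cdk4, Cdk6 and Cdkn1b stay clear of 0, and the ranges of Ccnd1, Ccnd3, Ccne1, Cdkn1a and Cdkn2c cross it.

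The wider pathway was described by lists, as counts over genes tested with their median beside -0.18 for all features. Of the 5 other CDK inhibitors 3 were tested, with a median log2 fold change of -0.24. Cdkn1c (p57), which acts like Cdkn1b, was at 0.503, 0 and 0 RPKM in CML and 0.554, 6.85 and 2.735 RPKM in naive Tregs (a log2 difference of -1.64, SE 0.69, limma adjusted p = 0.506). It passed the filter on low values only through its naive level. At the depths of CML replicates 2 and 3 a value of 0 allows at least 1.9 and 0.69 RPKM, and more if the length used was shorter. Both are above naive replicate 1, so a difference from that mouse was not detectable at these depths. No gene of this list had an unadjusted p under 0.05 when any library other than naive replicate 1 was left out. Among the 17 genes of the RB and E2F family 0 passed an unadjusted p under 0.05 in either direction, with a median of 0.15. Rb1, the substrate of the D cyclin kinases, was at 41.9, 44.4 and 36.2 RPKM in CML and 48.7, 47.2 and 42.7 RPKM in naive Tregs (a log2 difference of -0.18, limma adjusted p = 0.758). E2f1, a factor held by RB, was at 2.13, 4.17 and 14.5 RPKM in CML and 2.37, 0.492 and 0.942 RPKM in naive Tregs, with CML replicate 1 inside the naive range (a log2 difference of 1.56, SE 0.69, limma adjusted p = 0.526). Lin52, a subunit of the DREAM complex that silences cell cycle genes, was the 1 family member without overlap (a log2 difference of 0.51, limma adjusted p = 0.711). It was higher in CML, as were 4.84% of all features without overlap.

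Of 19 genes for G1/S kinase control, 1 was higher at an unadjusted p under 0.05, as were 2.92% of features. Another 1 was lower, as were 6.77% of features, and the list median was -0.27. Both genes encode subunits of the same enzyme, whose cyclin Ccnh overlapped between the groups (a log2 difference of -0.073, limma adjusted p = 0.975). Cdk7, the kinase that activates other CDKs, was at 26.9, 28.96 and 41.6 RPKM in CML and 19.1, 21.4 and 17.5 RPKM in naive Tregs (a log2 difference of 0.70, SE 0.25, limma adjusted p = 0.434). Mnat1, the assembly subunit of the Cdk7 complex, was at 9.60, 14.3 and 7.996 RPKM in CML and 18.03, 28.1 and 22.1 RPKM in naive Tregs (a log2 difference of -1.04, SE 0.32, limma adjusted p = 0.353). Fbxo5, an inhibitor of the anaphase-promoting complex, was lower without overlap (a log2 difference of -0.81, SE 0.35, limma adjusted p = 0.522). Without CML replicate 2, 4 genes of this list were higher, and 0 were higher without CML replicate 3, naive replicate 1 or naive replicate 3. Those lower numbered 2 without CML replicate 1 or CML replicate 3 and 0 without naive replicate 2.

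Of 24 replication genes that E2F is known to drive, 23 had a log2 fold change above 0, as had 35.7% of all features, with a median of 0.54, and 5 were higher at an unadjusted p under 0.05, against 2.92% of features. Mcm5, a subunit of the replicative helicase, was at 29.8, 32.8 and 32.3 RPKM in CML and 16.6, 14.9 and 19.95 RPKM in naive Tregs (a log2 difference of 0.85, SE 0.23, limma adjusted p = 0.282). Chaf1a and Chaf1b, subunits of the factor that places histones on new DNA, had log2 fold changes of 1.77 (SE 0.57, limma adjusted p = 0.372) and 1.10 (SE 0.38, limma adjusted p = 0.421), both without overlap. Mki67, a marker of cycling cells, was at 83.2, 44.25 and 103 RPKM in CML and 43.9, 43.4 and 46.7 RPKM in naive Tregs, with CML replicate 2 inside the naive range (a log2 difference of 0.69, SE 0.30, limma adjusted p = 0.525). The count of 5 became 14 without CML replicate 2, 3 without CML replicate 3 or naive replicate 1, and 1 without naive replicate 3, and the median without CML replicate 2 was 0.85 where that of all features was -0.032. Erythroid markers were higher in the same libraries, as given above.

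Of 16 p53 target genes 14 were tested, with a median of -0.049. Of these, 1 was lower at an unadjusted p under 0.05, as were 6.77% of all features. Sesn1, a stress gene that restrains growth signaling and is also a FOXO target, was at 30.04, 32.4 and 34.3 RPKM in CML and 73.1, 79.3 and 68.6 RPKM in naive Tregs, without overlap (a log2 difference of -1.17, SE 0.17, limma adjusted p = 0.0707). Without CML replicate 2 and without CML replicate 3 the list had 2 and 3 genes lower.

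Of 16 genes known to keep T cells quiescent, 15 had a log2 fold change below 0, as had 64.3% of all features, with a median of -0.43, and 7 were lower at an unadjusted p under 0.05 (Klf2, Tcf7, Lef1, Foxp1, Tob1, Slfn2 and Klf6), against 6.77% of features. Klf2 and Tcf7 fell in CML and were called. Klf2, a factor that keeps T cells resting and recirculating, was at 91.5, 82.7 and 116 RPKM in CML and 317, 327 and 230.4 RPKM in naive Tregs (a log2 difference of -1.58, SE 0.20, limma adjusted p = 0.0416). Tcf7, a factor of naive and memory T cells, was at 70.6, 85.8 and 72.4 RPKM in CML and 287, 455 and 218 RPKM in naive Tregs (a log2 difference of -1.99, SE 0.26, limma adjusted p = 0.0445). Leaving out any 1 library, no filter on low values, the replicate block and no trend in the variance each ended both calls, which held in 6 (Klf2) and 3 (Tcf7) of the 15 alternatives, with a highest adjusted p of 0.363 and 0.252. Their log2 fold changes spanned -1.74 to -1.48 and -2.23 to -1.70, and 5 to 8 genes of the list were lower at an unadjusted p under 0.05 whichever library was left out. Klf2 and Tcf7 also mark naive over effector T cells, a difference the list does not separate from cell cycle state.

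**Figure D5:**
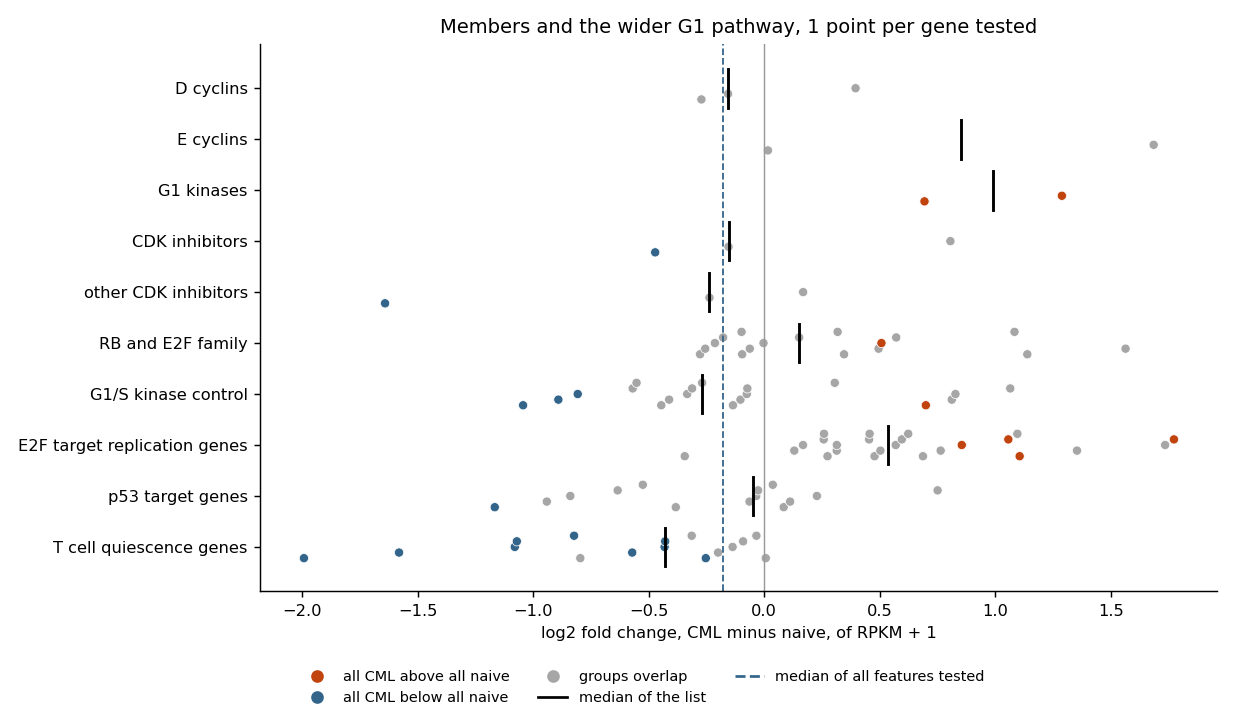
Log2 fold change, CML minus naive, of RPKM + 1 (x axis) for the 10 genes by role and for the pathway lists, 1 point per gene tested, colored by whether the libraries of the groups overlap; black ticks mark list medians and the dashed line the median of all features (-0.18). The E2F target genes lie mostly to the right, with a median of 0.54, and the quiescence genes to the left, with a median of -0.43.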

How the data were processed

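BM Tregs were purified by FACS and libraries prepared from total RNA with the SMART-Seq v4 kit. The authors assembled reads with SeqMan NGen and made expression values with ArrayStar, and the submitters' processing notes list the builds GRCm38 and mm10. The annotation is not given in the sources used here. The deposited tables, 1 per library, hold values read as RPKM from their steps, and the deposited value 0.001, which stands for no reads, was set to 0. Depth was estimated from the same steps (829181 to 9751911 reads). The estimate is approximate, since 30.5% to 59.0% (59.04%) of the recovered low values were near whole reads. Read equivalents and 3-read floors used the longest coding transcript and cover counting error only. With a shorter length the reads would be fewer and the floors higher.

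The 6 libraries, grouped by their titles, were compared with limma 3.58.1 (trend) on log2(RPKM + 1) in R 4.3.3, with a mean of at least 1 RPKM and Benjamini-Hochberg adjustment. Fold changes on this scale understate those of low genes. p-values measure the spread between these mice. The genes and lists were chosen with earlier results of these data known. Genes were named if they were among the 10, if a list's genes were called or, with none called, were the up to 3 with the lowest p without overlap, or if they were fixed partners. The test was checked on simulated data in which each gene had the same spread in all 6 libraries. That check does not cover the lower depth of CML replicate 2. Correlations of deviations between same-numbered mice were -0.0048, -0.0016 and -0.019, so the numbers pair nothing. Promoters are from RefSeq. One list of markers is not reported here. Python 3.11.15, numpy 2.4.6, pandas 2.3.3, scipy 1.17.1 and matplotlib 3.10.9 were used. Alternatives were other pseudocounts, filters, scalings, variance models and leaving out each library.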

Additional observations from a re-analysis of the deposited data

How the results depend on the processing

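Under every alternative run, 0 of the 10 genes were called. Ccnd2, Ccne2, Cdk4, Cdk6 and Cdkn1b kept their direction in all 15 alternatives. The sign turned for Cdkn2c with quantile normalization (0.092) and without CML replicate 1 (0.10), CML replicate 2 (0.094), naive replicate 2 (0.097) or naive replicate 3 (0.25). It turned for Ccnd3 with library weights (0.16) and without CML replicate 2 (0.053), and for Ccne1 without CML replicate 1 (-0.23), CML replicate 3 (-0.12), naive replicate 2 (-0.046) or naive replicate 3 (-0.25). It also turned for Cdkn1a without CML replicate 1 (-0.041) and for Ccnd1 without naive replicate 3 (0.019). With 1 library left out the log2 fold changes spanned -0.74 to 0.019 for Ccnd1, -0.50 to 0.053 for Ccnd3, -0.25 to 0.39 for Ccne1, -0.041 to 1.602 for Cdkn1a and -0.81 to 0.25 for Cdkn2c. A filter at a mean of 5 RPKM left no value for Ccne1, Cdkn1a and Cdkn2c.

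The number of features called, 24, became 1 with no filter on low values, 53 with quantile normalization, 53 at the same 75th percentile, 1 with the replicate block, 11 with no trend in the variance, 45 with library weights and 0 to 17 with 1 library left out. In the replicate block fit Cdkn1b no longer had an unadjusted p under 0.05; the numbers join different mice.

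Counts at an unadjusted p under 0.05 moved as follows. Over all 13923 features, those higher numbered 406 in the main fit, 742 with quantile normalization and 576 at the same 75th percentile. Those lower numbered 942, 757 and 918 in the same order. The background thus moved as well, and it was not counted for the other alternatives. Other CDK inhibitors lower, 1, became 0 with pseudocount 4, a mean of at least 5 RPKM, quantile normalization, replicate block or library weights, and 0 to 1 with 1 library left out. RB and E2F genes higher, 0, became 3 with quantile normalization, 1 at the same 75th percentile, 1 with no trend, 1 with library weights, and 0 to 3 with 1 library left out. G1/S control genes higher, 1, became 3 with quantile normalization, 2 at the same 75th percentile, 0 with the replicate block, 2 with library weights, and 0 to 4 with 1 library left out, and those lower, 1, became 2 with no trend and 0 to 2 with 1 library left out. E2F target genes higher, 5, became 10 with quantile normalization, 9 with library weights and 1 to 14 with 1 library left out. p53 target genes lower, 1, became 2 with quantile normalization, 2 at the same 75th percentile, 2 with library weights, and 1 to 3 with 1 library left out. Each cause was not tested. Another 175 comparisons of counts gave the same count or one within 1.5-fold of it. In 194 more, single values kept their direction and call, or differences in shares moved by less than the pooled SD of the groups.

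With 3 mice per group, 1 of them at 829181 reads, genes of a few RPKM rest on few reads. In CML replicate 2 Cdkn1a had 0 reads. Ccne1 and Cdkn2c had read equivalents there of at most 3.26 and 4.87, reckoned over the longest coding transcript. A shorter length would give fewer reads. RPKM values also move with a few abundant features, which held 50.7% of that library.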

Other observations

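Cdkn2b (p15), an inhibitor of Cdk4 and Cdk6, was at 4.68 RPKM in CML replicate 1 and listed at 0 in the other 5 libraries. Cdkn2a, the locus of p16 and p19, was at 0.258 RPKM in CML replicate 1, at 1.89 RPKM in naive replicate 1 and listed at 0 elsewhere. Cdkn2d, the p19 relative of Cdkn2c, was the highest of these genes, at 4.46, 26.5 and 12.2 RPKM in CML and 18.1, 17.5 and 8.19 RPKM in naive Tregs, and Cdkn3 stayed at or below 2.38 RPKM. Cks1b, the partner of Skp2, ranged from 0 in CML replicate 3 to 15.1 RPKM in CML replicate 2, the shallow library. In naive Tregs it ranged from 0.803 to 5.13 RPKM. The read support of Cks1b was not estimated, so these values do not show whether it moved with Skp2. These values were picked out after they were seen and carry no test.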
